A study of Homo sapiens with 9 samples.

Results

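Broad accessible regions are merged peaks of open chromatin spanning 2.5 kb or more over all libraries, so a single library may cover less. They were taken from ATAC-seq peak lists of K562 cells with and without a mutation of the cohesin gene STAG2. In each of 9 libraries the 50000 peaks with the highest −log10 p on chromosomes 1 to 22 and X were kept. Peaks of all libraries that overlapped by 1 bp or more were merged, and merged regions of 2500 bp or longer were retained, so the members were chosen by the peaks' −log10 p and by merged width. This left 287 regions of 105878. Of these, 243 lay within 1 kb of the start site of a protein-coding transcript, and in all 243 the start site was inside the region. The other 44 are called distal.

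The cells were parental K562, a human erythroleukaemia line that carries the BCR-ABL1 fusion, with no STAG2 mutation (wild type), and 2 derived lines with the STAG2 R614* change, 1 heterozygous (+/-) and 1 homozygous (-/-). The genotype field of the labels gives the homozygous state, while the titles name that line STAG2nullA and the design text STAG2homozygous1. Each genotype had 3 libraries, made from 50000 cells each with the Tn5 transposase and read as 100 bp single ends. Each mutant genotype is a single line, and per the labels the homozygous line grew attached and had to be released by trypsin, so genotype, line and growth form cannot be told apart. The labels do not say whether replicates came from separate cultures, so the p-values measure only the spread between these libraries, which may be technical.

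ATAC-seq marks DNA that a transposase can reach. Most open sites are short and hold a nucleosome-free gap of one promoter or enhancer, while a broad region joins several neighbouring open sites. Cohesin is a ring-shaped complex that folds chromatin into loops halted at CTCF sites, and STAG2 is one of the alternative subunits that hold the ring on DNA. Promoters of many genes lie in CpG islands, stretches rich in the dinucleotide CpG where nucleosomes are often displaced over a long distance.

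The following sequences, each of 200 bp, are from the GRCh37 reference (plus strand, 5′ to 3′), with CpG in capitals. The first 4 show, for 2 regions described below in which the homozygous libraries did not overlap the others, bases that all 9 libraries covered and bases of the flank that only some genotypes covered. The last 3 show the mutated gene's own region and 2 distal regions. Covered means covered by the 50000 strongest peaks of a library: weaker peaks of the whole lists reach the KCNAB2/NPHP4 flank in homozygous replicates 2 and 3 and the MAPK9 flank in all 3 homozygous libraries. None overlaps an annotated exon.
KCNAB2/NPHP4, bases covered in all 9 libraries, chr1:6052104-6052303: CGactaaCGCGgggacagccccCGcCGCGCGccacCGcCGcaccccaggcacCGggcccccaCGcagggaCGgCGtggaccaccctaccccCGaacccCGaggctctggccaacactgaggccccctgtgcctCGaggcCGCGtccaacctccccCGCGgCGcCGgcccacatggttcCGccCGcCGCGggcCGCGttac
KCNAB2/NPHP4, flank outside the strongest peaks of the homozygous libraries, chr1:6053200-6053399: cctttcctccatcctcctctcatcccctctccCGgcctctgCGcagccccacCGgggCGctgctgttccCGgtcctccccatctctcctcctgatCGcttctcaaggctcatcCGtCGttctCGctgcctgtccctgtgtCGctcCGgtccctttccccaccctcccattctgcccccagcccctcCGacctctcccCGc
MAPK9, bases covered in all 9 libraries, chr5:179719301-179719500: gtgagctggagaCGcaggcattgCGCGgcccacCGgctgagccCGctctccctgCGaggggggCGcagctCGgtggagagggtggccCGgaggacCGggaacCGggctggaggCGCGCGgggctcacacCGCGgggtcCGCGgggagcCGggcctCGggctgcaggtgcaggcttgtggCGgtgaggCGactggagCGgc
MAPK9, flank outside the strongest peaks of the homozygous libraries, chr5:179720521-179720720: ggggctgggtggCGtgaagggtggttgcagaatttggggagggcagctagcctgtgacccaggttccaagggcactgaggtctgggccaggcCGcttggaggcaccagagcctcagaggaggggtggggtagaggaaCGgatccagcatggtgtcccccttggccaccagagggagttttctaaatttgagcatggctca
STAG2, bases covered in all 9 libraries, chrX:123095356-123095555: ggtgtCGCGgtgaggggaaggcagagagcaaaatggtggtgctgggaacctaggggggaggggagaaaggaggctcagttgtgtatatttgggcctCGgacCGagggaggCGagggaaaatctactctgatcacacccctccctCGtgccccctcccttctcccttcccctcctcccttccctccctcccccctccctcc
MIR17HG, distal, bases covered in all 9 libraries, chr13:92000869-92001068: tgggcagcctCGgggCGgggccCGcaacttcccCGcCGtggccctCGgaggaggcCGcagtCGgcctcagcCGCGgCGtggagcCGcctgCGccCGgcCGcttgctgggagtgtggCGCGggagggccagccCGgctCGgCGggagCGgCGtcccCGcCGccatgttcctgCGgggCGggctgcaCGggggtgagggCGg
LINC00355, distal, bases covered in all 9 libraries, chr13:64650178-64650377: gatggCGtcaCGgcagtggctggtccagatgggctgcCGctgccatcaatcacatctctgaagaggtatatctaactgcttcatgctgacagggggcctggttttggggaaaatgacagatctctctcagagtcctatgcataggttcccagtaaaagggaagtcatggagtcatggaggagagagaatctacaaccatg
The shared stretch held 28 CpG at KCNAB2/NPHP4 and the flank 13. At MAPK9 the numbers were 23 and 3. The stretch at MIR17HG held 28 CpG and that at LINC00355 held 3.

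The peak lists held between 181579 and 319986 intervals per library, and the 50000 strongest covered between 34.49 and 37.68 Mb. The weakest of the 50000 had a −log10 p between 4.946 and 6.73, lowest in homozygous replicate 2 and highest in homozygous replicate 3. The files give no read counts, so the depth behind them is unknown. Wild type replicate 3 and heterozygous replicate 1 shared 20.2% of their 50000 intervals with identical ends, and wild type replicates 1 and 2 shared 6.15%. The other 34 pairs shared 1.02% or less. Within the broad regions the bp covered by wild type replicate 3 and heterozygous replicate 1 differed by 20 bp or less in 157 of the 278 regions that both held. The median difference was 12 bp there and 64.5 bp between wild type replicates 1 and 2, against 207.5 bp between heterozygous replicates 2 and 3, and 236 to 478 bp in the other 33 pairs. These libraries therefore may not be independent. The bp covered and the groups called apart are also given without wild type replicate 3 and heterozygous replicate 1. Of K562 marker genes, TAL1 and HBE1 had one of the strongest peaks within 1 kb of a start site in 9 libraries, NFE2 in 8, EPOR in 7 and HBZ in 2. GATA1 and KLF1 had such a peak in 0, although weaker peaks in the whole lists reached GATA1 in 8 libraries and KLF1 in 4. Of markers of other cell types, CD3E, PAX5, CDH5, KRT5 and KRT14 had one of the strongest peaks in 0 libraries, COL1A1 and COL1A2 in 9, CD3D in 7 and PDGFRB in 4.

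Broad regions were held by most libraries. All 9 libraries had one of their strongest peaks in 254 of the 287, 219 near a start site and 35 distal, and the others were held by 3 to 8 libraries. Of the 71 pairs of a region and a library without a strong peak, 71 had a weaker peak in the whole list. The median width was 2681 bp near a start site and 2639.5 bp in distal regions. The 3 regions just inside the limit were LINC02840 (2501 bp), ATXN7L3B (2501 bp) and ZBTB10 (2504 bp), and the 3 just outside were SLC40A1 (2499 bp), CCDC26 (2498 bp) and IER5 (2498 bp). These widths chose the members and are a description.

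The widest region near a start site was that of NR4A2, an orphan nuclear receptor of the immediate early genes, which spanned 4186 bp (chr2:157188266-157192451). Its bp covered was 4011, 4013 and 4013 in the wild type, 4017, 3568 and 3844 in the heterozygous and 3945, 3838 and 3921 in the homozygous libraries. All 9 libraries thus covered most of it, and 3474 bp were covered in every library, the most of any broad region. The next was FAM78A (4052 bp), where coverage ran from 1188 bp in homozygous replicate 1 to 3405 bp in heterozygous replicate 3 and only 750 bp were shared by all 9. JADE1 (3641 bp), which encodes a subunit of a histone acetyltransferase complex, was covered over 2643 to 3355 bp and had 2205 bp in common. FBXO30 (3611 bp), an F-box protein, had 3591 and 3611 bp in wild type replicates 1 and 2 and 1949 to 2614 bp in the other 7 libraries. KLF9 (3611 bp), a Krüppel-like transcription factor, ranged from 884 bp in homozygous replicate 1 to 3116 bp in wild type replicate 3. The remaining 3 of the 8 widest were TAGLN2 (3448 bp), an actin-binding protein, ETV1 (3442 bp), an ETS transcription factor, and PGR (3414 bp), the progesterone receptor. NR4A2 held a second broad region of 2596 bp, covered over 1516 to 2561 bp. SAP30, chosen after its values were seen, encodes a subunit of the Sin3 histone deacetylase complex and was covered over 2900 to 3001 bp in every library. PGR was covered over 0 bp in homozygous replicate 2 and 3372 bp in heterozygous replicate 1.

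The places of the distal regions are a description, since those of shorter distal regions were not counted. By annotation 27 touched an exon of a gene of any type, 9 touched only introns and 8 lay outside genes. Of the 44, 26 overlapped a long non-coding RNA gene, 10 a protein-coding gene and 5 a pseudogene. The nearest coding start site was a median of 96.7 kb away, more than 100 kb in 21 regions and within 5 kb in 5. The widest, in PRR36 on chromosome 19 (3978 bp), was 1081 bp from a coding start site and therefore just missed the promoter class. It was covered over 1357, 1863 and 3131 bp in the wild type, 2605, 1780 and 1841 bp in the heterozygous and 3688, 2549 and 2299 bp in the homozygous libraries, with overlapping groups. The next widest lay in ASTN1 (3063 bp, intronic), in ITGA1 (3053 bp) (integrin alpha-1), and in LINC02109 (2983 bp). A region near SLC44A5 (2928 bp), one near NTRK3 (2917 bp), one in TENM1 (2867 bp) and one in LINC00355 (2856 bp) completed the 8 widest. MIR17HG, the host of the miR-17-92 microRNA cluster, was the distal region with the most bases shared by all 9 libraries and was chosen for that. Its coverage was 2825, 2825 and 2806 bp in the wild type, 2809, 2808 and 2650 bp in the heterozygous and 2401, 2809 and 2785 bp in the homozygous libraries, and 2363 bp were shared by all 9.

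Gene lists with the study's themes were placed beside all 20090 protein-coding genes, of which 303 (1.508%) had a start site within 1 kb of a broad region and 383 (1.906%) had a broad region within 10 kb of the gene body. Histone genes had 9 of 69 at the promoter and 13 of 69 within 10 kb, in 6 regions. Since histone genes lie side by side, those 13 genes are not independent. Growth control and JAK-STAT feedback genes had 3 of 30 at the promoter: SOCS2, a feedback inhibitor of cytokine signalling, CDK6, a cell cycle kinase, and DUSP1, a phosphatase of MAP kinases. One more gene, BCR, the fusion partner of ABL1 in these cells, held a distal region. Cohesin and CTCF genes had 2 of 16, STAG2 itself and NIPBL, which loads cohesin on DNA. Blood lineage regulators had 1 of 23 (RUNX1), the AP-1 family list 1 of 16 (NFE2L2, the oxidative stress regulator) and globin and red cell genes 1 of 22 (UROD, an enzyme of haem synthesis). Adhesion and mesenchymal genes had 0 of 28 and ubiquitous proteostasis and cytoskeleton genes 0 of 27. ACTB and GAPDH are among those 27.

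At STAG2 (chrX:123093341-123096205), bp covered was 2086, 2106 and 2139 in the wild type, 2472, 2102 and 1640 in the heterozygous and 1568, 1759 and 2242 in the homozygous libraries. The groups overlapped, and limma gave a log2 difference of -0.20 ± 0.18 (SE) between homozygous and wild type with an adjusted p of 0.696. The R614* change lies in the coding sequence, so accessibility at the promoter is no check of the genotype. At NIPBL (chr5:36875018-36877875) the values were 2068, 1679 and 1706 bp in the wild type, 2047, 2825 and 2797 bp in the heterozygous and 1605, 1831 and 1987 bp in the homozygous libraries. Heterozygous replicates 2 and 3 were the highest, but heterozygous replicate 1 lay within the wild type range. At RUNX1, a regulator of blood stem cells, coverage ranged from 952 bp in homozygous replicate 1 to 2630 bp in homozygous replicate 3, so the spread within that genotype spanned all other libraries. At NFE2L2 the homozygous libraries were the 3 lowest (2412, 2386 and 2460 bp), with 2477 to 2926 bp in the wild type and 2473 to 2970 bp in the heterozygous libraries, a gap under the 250 bp used below to call groups apart. CDK6 had 2346, 2432 and 2324 bp in the wild type, 2324, 805 and 2341 bp in the heterozygous and 1005, 1472 and 2324 bp in the homozygous libraries, with 1 low heterozygous and 2 low homozygous libraries. DUSP1 was low in wild type replicate 1 (1167 bp) and heterozygous replicates 2 and 3 (1185 and 1152 bp) and lay between 2119 and 2577 bp in the other 6. The promoter shared by HECTD3 and UROD was covered over 1713 to 2360 bp, with overlapping groups. The 3 widest histone regions varied within every genotype: H2AC19/H3C15 from 500 to 2596 bp, H3C14/HIST2H2AA3 from 500 to 2286 bp and H1-4/H2BC5 from 1221 to 2586 bp. Histone genes have near-identical copies, so reads there may have been split between them. In the distal region of BCR coverage was 2075, 2089 and 686 bp in the wild type, 2502, 705 and 708 bp in the heterozygous and 974, 774 and 949 bp in the homozygous libraries, with 1 low wild type and 2 low heterozygous libraries.

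Broad regions near a start site differed little in base composition from shorter ones, and broad distal regions were richer in CpG than shorter distal ones. Median GC content was 60.27% in the 243 broad regions near a start site and 59.39% in 8136 shorter ones that all 9 libraries held. The median ratio of observed to expected CpG was 0.769 against 0.74. For distal regions the medians were 50.62% against 46.47% GC and 0.41 against 0.249 for CpG, over 44 broad and 10864 shorter regions. A CpG ratio above 0.6 with GC above 50%, as in CpG islands, was met by 205 of 243 broad regions near a start site (84.36%) against 79.61% of shorter ones, and by 10 of 44 distal ones (22.73%) against 8.48%. Start sites on both strands were found in 50 of 243 broad regions (20.576%) and 13.434% of the shorter ones, and a longer region can hold more start sites. The median number of annotated start sites inside was 3 in both.

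**Figure D1:**
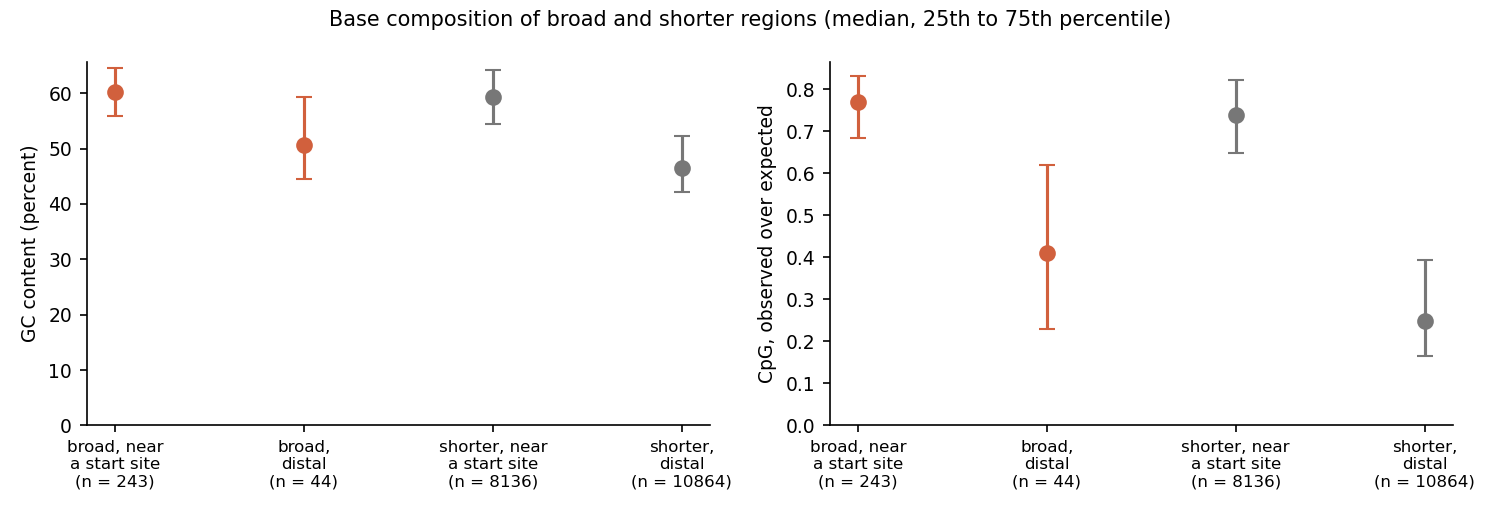
Median GC content in percent (left) and ratio of observed to expected CpG (right) of broad and shorter regions, with bars from the 25th to the 75th percentile. Near a start site both sets lie together (60.27% and 59.39% GC), while broad distal regions lie above shorter distal ones (CpG ratio 0.41 against 0.249).

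Short motifs were searched on both strands in the 101 bp around the first and last summit of each peak, the only summits whose place the files fix. In a peak of many summits these are the outermost, and in a peak of 1 summit the only one. Broad and shorter regions are thus not compared at like places. The GGGCGG box bound by SP and KLF factors was within this window at a median over libraries of 30.2% of summits in broad regions near a start site and 34.1% in shorter ones. The ETS motif CCGGAAG was at 3.22% against 4.91%. Among distal regions the GATA motif AGATAA was at 9.28% of summits in broad and 9.1% in shorter regions, the AP-1 motif TGANTCA at 9.57% against 9.49% and the RUNX motif TGTGGT at 8.51% against 10.3%. CTCF was the motif with the lowest share in broad distal regions relative to shorter ones, at a median of 0.0% against 3.17%, with 0.0% to 1.03% over the 9 libraries and 94 to 107 summits in each. Over the whole length of the 44 distal regions 1 held a CTCF motif, and of the 243 near a start site 7 did. The whole length of shorter regions was not searched. In the sequences printed above GGGCGG occurs 1 time in the shared KCNAB2/NPHP4 stretch and 3 times in that of MIR17HG, and the other 5 stretches hold 0 matches of any of the 6 motifs. A match of letters is not evidence of binding.

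Broad regions were unevenly spread over chromosomes. Chromosome 1 held 42, chromosome 6 held 34 and chromosome 4 held 26. Among regions near a start site that all 9 libraries held, 6.486% were broad on chromosome 4 and 5.455% on chromosome 6, against 0.198% on chromosome 19 and 0.316% on chromosome 16. Chromosomes 19 and 16 held 2 and 1 broad regions near a start site, so their shares rest on few regions. Both are known to be rich in genes and in GC, and a link of that to the shares was not tested. K562 is aneuploid, and copy number was not used here.

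**Figure D2:**
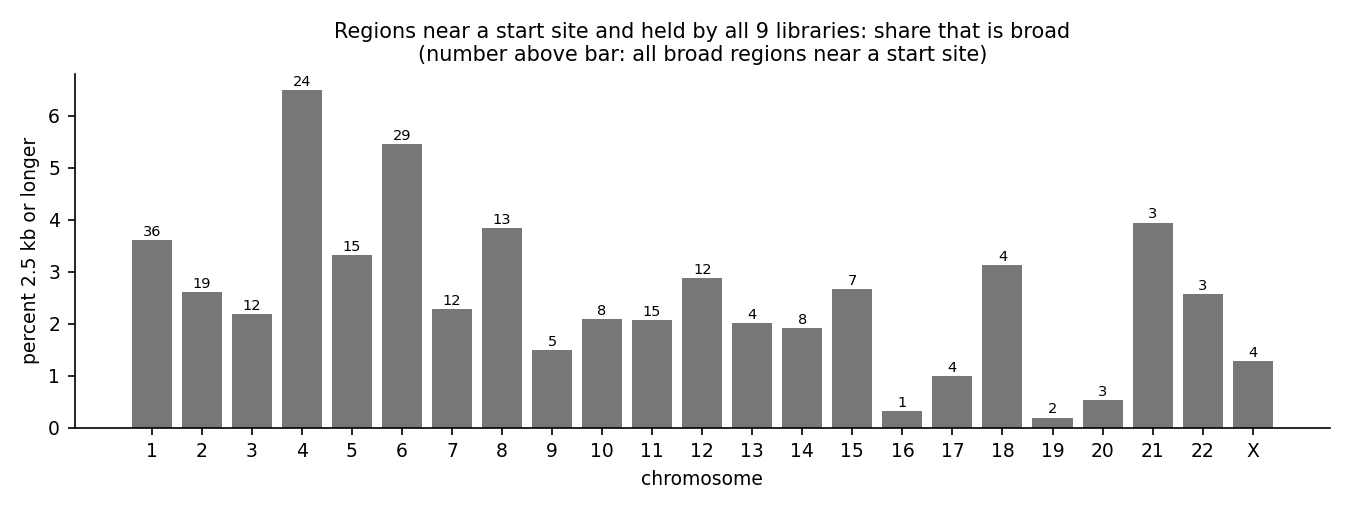
Share of regions near a start site and held by all 9 libraries that were 2.5 kb or longer, in percent, for each chromosome, with the number of broad regions near a start site above each bar. The bars are highest for chromosomes 4 (6.486%) and 6 (5.455%) and lowest for chromosomes 19 (0.198%) and 16 (0.316%).

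Coverage of the broad regions was lowest in the homozygous libraries, with some overlap. The regions were chosen by the merged width of these same peaks, so this is a description. Mean bp covered per region near a start site was 1947, 2044 and 2182 in the wild type, 2122, 1994 and 2051 in the heterozygous and 1838, 1814 and 1968 in the homozygous libraries. Homozygous replicates 1 and 2 were the 2 lowest, and homozygous replicate 3 lay above wild type replicate 1 but below all heterozygous libraries. The group means were 2058 ± 118 bp in the wild type, 2056 ± 63.8 bp in the heterozygous and 1874 ± 83.0 bp in the homozygous libraries (SD, n = 3 each). In distal regions the libraries had 1734, 1888 and 2018 bp in the wild type, 1995, 1696 and 1785 bp in the heterozygous and 1718, 1659 and 1719 bp in the homozygous group. There the 3 homozygous libraries lay below all wild type libraries, and heterozygous replicate 2 lay among them. Without wild type replicate 3 and heterozygous replicate 1 the difference between homozygous and wild type was -121.85 bp near a start site and -112.48 bp in distal regions, against -184.07 and -181.47 bp with them.

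Summits followed the bp covered. A summit is a local maximum of the pileup, and a peak interval of several joined windows lists 1 offset for each. Regions near a start site had a mean of 6.53, 7.13 and 7.70 summits in the wild type, 7.40, 6.74 and 7.06 in the heterozygous and 6.06, 5.97 and 6.85 in the homozygous libraries. Distal regions had 6.05, 6.64 and 7.18 in the wild type, 6.82, 5.66 and 5.89 in the heterozygous and 5.66, 5.68 and 6.14 in the homozygous libraries, and the genotypes overlapped in both classes. The mean spacing between summits of joined windows was 242 ± 3.08 bp in the wild type, 242 ± 0.75 bp in the heterozygous and 240 ± 2.66 bp in the homozygous libraries, over all broad regions (SD, n = 3 each). A single library covered 2500 bp or more of 50, 76 and 85 of the 287 regions in the wild type, of 77, 55 and 62 in the heterozygous and of 29, 29 and 53 in the homozygous group. Homozygous replicates 1 and 2 were again the lowest, and homozygous replicate 3 lay above wild type replicate 1. No library alone covered 2500 bp in more than 85 of the 287.

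The broad regions took up 1.54% to 1.64% of all bp of the 50000 peaks in the wild type, 1.59% to 1.63% in the heterozygous and 1.49% to 1.51% in the homozygous libraries. In this share the homozygous libraries lay below the other 6 over all broad regions and over those near a start site. In distal regions the genotypes overlapped. There the share was 0.2141% to 0.2357% in the wild type, 0.2122% to 0.2375% in the heterozygous and 0.2034% to 0.218% in the homozygous libraries. Homozygous replicates 1 and 2 had the lowest −log10 p at rank 50000 (5.489 and 4.946) and the fewest bp in all. Homozygous replicate 3 had the longest list and the highest −log10 p at that rank (6.73). Its mean over all broad regions was 1930 bp, above wild type replicate 1 (1914 bp) and below the other wild type and heterozygous libraries. With whole lists in place of the 50000 strongest peaks the mean over all broad regions was 2302 ± 59.8 bp in the wild type, 2276 ± 43.7 bp in the heterozygous and 2141 ± 118 bp in the homozygous libraries (SD, n = 3 each). The part of list length in the difference was not tested.

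**Figure D3:**
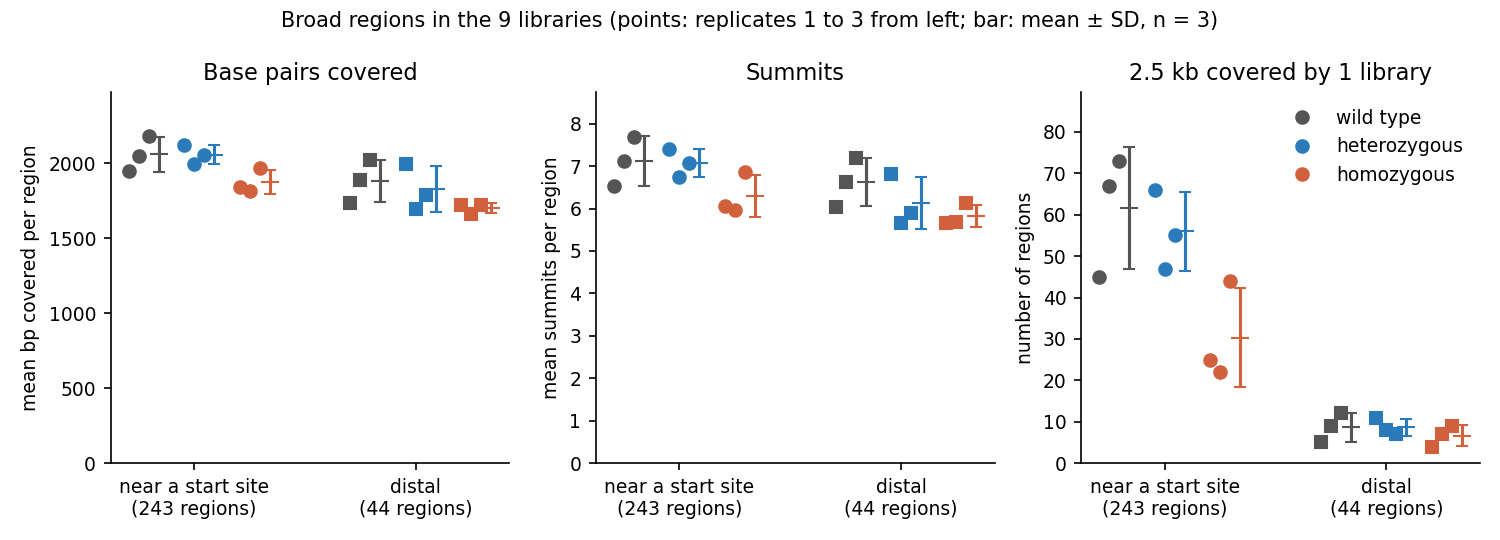
Mean bp covered per region (left), mean summits per region (middle) and number of regions of which 1 library covered 2500 bp or more (right), for the 243 regions near a start site and the 44 distal ones. Points are the 3 libraries of a genotype and bars the mean ± SD; near a start site homozygous replicates 1 and 2 lie lowest in all 3 panels.

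The comparison of homozygous with wild type cells asks whether loss of functional STAG2 goes with a change in the extent of open chromatin. The limma fit on log2 bp covered took in the 19254 regions that all 9 libraries held, 254 of them broad. It called 178 of all regions (0.924%) at an adjusted p under 0.05 (Benjamini-Hochberg over all of them) and 2 of the 254 broad ones, KCNAB2/NPHP4 and MAPK9, both lower in homozygous cells. By direction the background was 0.27% for higher and 0.654% for lower in homozygous cells. The broad share of 0.787% is near the background, so broad regions were not called more often. The median log2 difference was -0.15 over the broad regions and -0.03 over all regions tested, and 184 of 254 broad regions (72.4%) lay below 0 against 53.9% of all. No test was made of this difference in medians. The broad regions were chosen by the merged width of these same peaks, so the difference is a description only.

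KCNAB2/NPHP4 is a shared promoter region on chromosome 1 (chr1:6051584-6054161) of a potassium channel beta subunit gene and the ciliary gene NPHP4. Its bp covered was 2529, 2527 and 2067 in the wild type, 2068, 2084 and 2340 in the heterozygous and 1293, 1346 and 1276 in the homozygous libraries. The 3 homozygous libraries were the lowest of all 9, with no overlap. The log2 difference between homozygous and wild type was -0.86 ± 0.09 (SE, limma adjusted p = 0.00872), and heterozygous cells differed from wild type by -0.13 (limma adjusted p = 0.934). The adjusted p stayed under 0.05 without any 1 of the 9 libraries (0.00092 to 0.0451). It was 0.0589 with each library centred on its median, 0.0794 with a replicate block and 0.101 with whole lists. The exact permutation test over 280 assignments compares all 3 genotypes at once and gave an adjusted p of 0.477. No region had a lower one, because 122 of 19254 regions shared the smallest possible p of that test, 0.00357. It therefore cannot decide this call.

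The bases that the homozygous libraries lacked at KCNAB2/NPHP4 were on 1 side. A stretch of 733 bp (chr1:6052934-6053666), beginning 114 bp downstream of a KCNAB2 start site, was covered by the strongest peaks of all wild type and no homozygous libraries. In whole lists the region's bp covered was 2529, 2527 and 2521 in the wild type, 2520, 2498 and 2340 in the heterozygous and 1293, 1846 and 1776 in the homozygous libraries. Weaker peaks thus extended 2 of the 3 homozygous libraries by 500 bp, and these still fell short of the other 6. It was the 1 broad region in which the homozygous libraries stood apart from both other genotypes, by 250 bp or more, with the 50000 strongest peaks and with whole lists.

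MAPK9 encodes the kinase JNK2, and its region lies on chromosome 5 (chr5:179718076-179720903). Coverage was 2182, 2197 and 2355 bp in the wild type, 2355, 2380 and 2212 bp in the heterozygous and 1199, 943 and 1429 bp in the homozygous libraries. Again the homozygous libraries were the 3 lowest, with no overlap. The log2 difference from wild type was -0.94 ± 0.14 (SE, limma adjusted p = 0.0415). A stretch of 500 bp (chr5:179720371-179720870), 1272 bp upstream of the start site, was covered by the strongest peaks of all wild type and no homozygous libraries. With whole lists coverage became 2628, 2610 and 2355 bp in the wild type and 1922, 1819 and 2352 bp in the homozygous libraries, so that homozygous replicate 3 came level with wild type replicate 3 (limma adjusted p = 0.272). The call was lost without any 1 of 7 libraries (limma adjusted p 0.0634 to 0.153) and held only without homozygous replicate 2 or homozygous replicate 3.

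**Figure D4:**
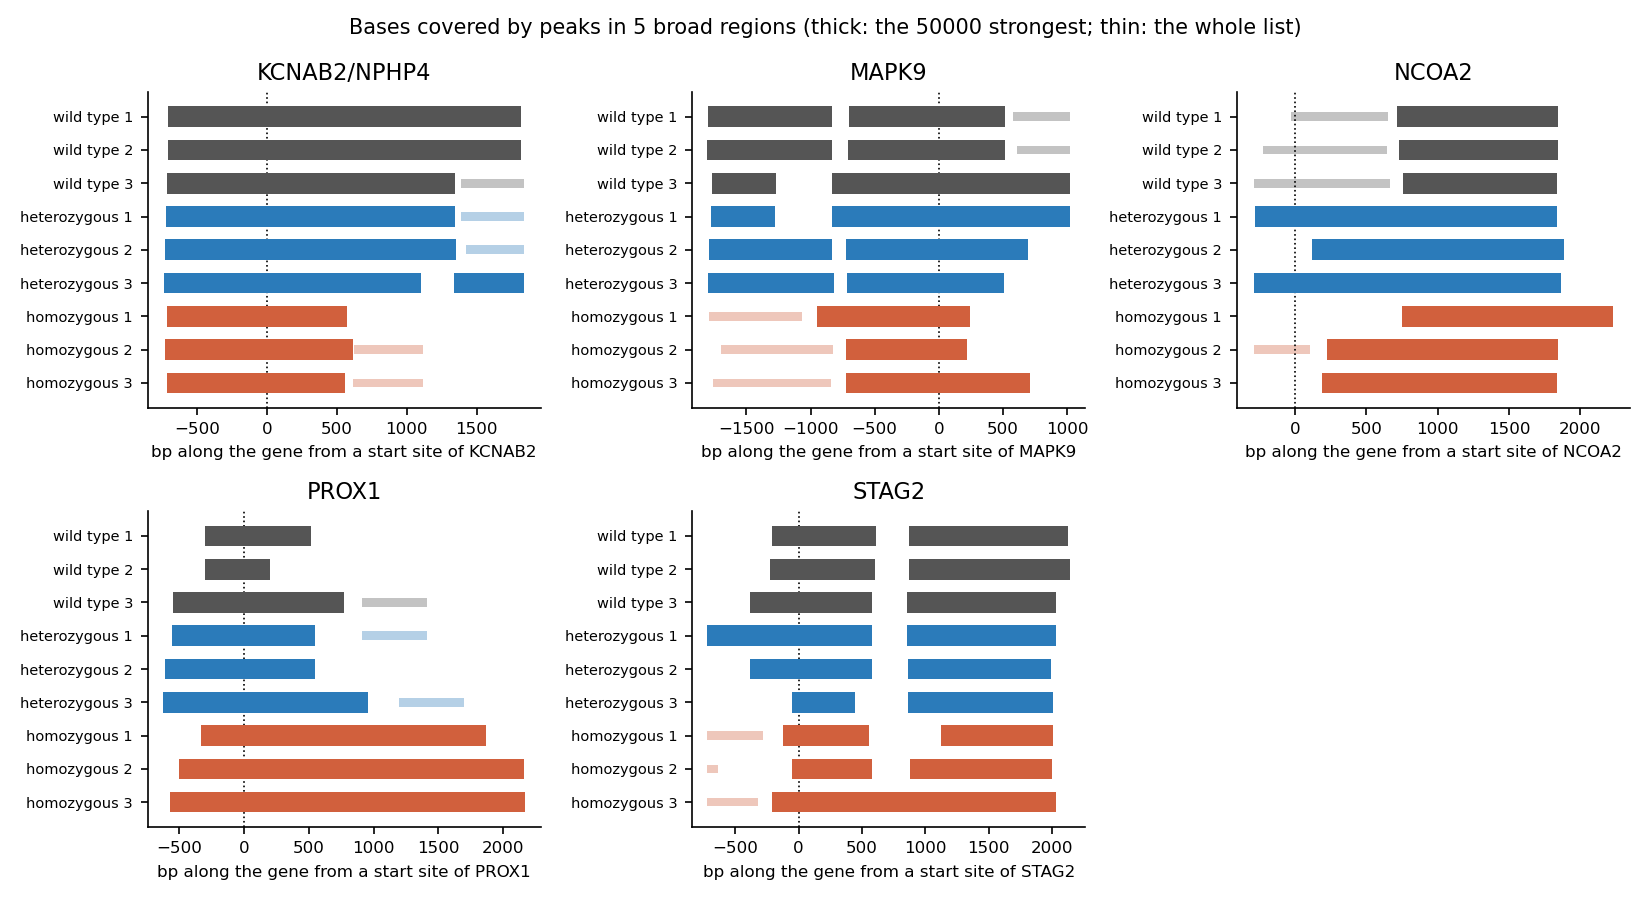
Bases covered by peaks in 5 broad regions for each of the 9 libraries, as bp along the gene from its most upstream annotated start site inside the region (dotted line). Thick bars are the 50000 strongest peaks and thin bars the further bases of the whole list; at KCNAB2/NPHP4 the homozygous bars end nearest the start site, and at MAPK9 thin bars fill part of the flank that the homozygous libraries lacked.

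Groups were also called apart when the lowest of 3 libraries of one genotype exceeded the highest of 3 of the other by 250 bp or more. Between homozygous and wild type libraries this held for 29 of 287 broad regions, against 7.36% of all regions with a peak in either genotype. As a share, 29 regions are 10.1% of the broad ones, and among regions of 2000 to 2499 bp the share was 6.52%. A long region leaves more room for a difference of 250 bp than a short one. Of the 29, 21 were higher in the wild type (19 near a start site and 2 distal; background 4.33%) and 8 were higher in the homozygous libraries, all near a start site (background 3.03%). By summits, with a margin of 1, 49 broad regions were apart (background 9.39%), 39 of them higher in the wild type (background 5.8%) and 10 in the homozygous libraries (background 3.59%), and among regions of 2000 to 2499 bp the share was 13.4%. No exact test on 3 against 3 libraries can give a two-sided p under 0.1, so these calls are descriptions. Without wild type replicate 3 and heterozygous replicate 1, with 2 wild type libraries left, 54 broad regions (18.8%) were apart in bp, against 15.2% of all regions.

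Which regions were called apart depended on how many peaks were read. Of the 29, 9 were apart in the same direction with the 20000 strongest peaks, 14 with 100000 and 8 with whole lists, and 0 were apart in the other direction. The 8 that held with whole lists were KCNAB2/NPHP4, PROX1, UGP2, GULP1, OXCT1, RNF145, RPS12/SLC18B1 and BIVM/BIVM-ERCC5/POGLUT2, of which PROX1 was higher in the homozygous libraries and the other 7 lower.

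Among regions called apart, those with the largest excess in the homozygous libraries were RGL2, PROX1 and USF2. At RGL2, a Ral exchange factor, coverage was 0, 0 and 944 bp in the wild type, 1587, 1256 and 0 bp in the heterozygous and 1867, 2568 and 2427 bp in the homozygous libraries. The homozygous libraries were the 3 highest there, but whole lists gave 2424, 2462 and 2100 bp in the wild type, and the difference of means became -41.3 bp. USF2, a basic helix-loop-helix factor, had 0, 0 and 1562 bp in the wild type, 1572, 1274 and 500 bp in the heterozygous and 1974, 1849 and 2576 bp in the homozygous libraries, and weaker peaks covered 2005 and 2338 bp in those wild type replicates at 0. At PROX1 (chr1:214160694-214163484), a homeobox factor of lymphatic endothelium, coverage was 816, 500 and 1319 bp in the wild type, 1101, 1155 and 1582 bp in the heterozygous and 2192, 2666 and 2740 bp in the homozygous libraries. The homozygous libraries were again the 3 highest. Whole lists left wild type replicates 1 and 2 at 816 and 500 bp but added a peak in wild type replicate 3 and in heterozygous replicates 1 and 3. With whole lists the homozygous libraries stayed 250 bp or more apart from the wild type but not from the heterozygous libraries. The log2 difference at PROX1 was 1.63 ± 0.35 (SE) with a limma adjusted p of 0.126, so it was not called. A stretch of 1094 bp with a PROX1 start site (chr1:214162086-214163179) was covered by the strongest peaks of all homozygous and no wild type libraries.

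Those with the largest deficit in the homozygous libraries were ZBTB1/ZBTB25, the region in LINC02038 and RPS12/SLC18B1. The promoter shared by the zinc finger genes ZBTB1 and ZBTB25 had 2659, 2651 and 2160 bp in the wild type, 2161, 1989 and 2184 bp in the heterozygous and 500, 1544 and 0 bp in the homozygous libraries. Homozygous libraries lay below the other 6, but weaker peaks brought them to 2117, 2044 and 2085 bp. With the 20000 strongest peaks the difference there was 239.7 bp in the other direction. The distal region in LINC02038 had 1322, 2623 and 1755 bp in the wild type, 1759, 0 and 870 bp in the heterozygous and 0, 843 and 0 bp in the homozygous libraries, so that heterozygous replicate 2 was as low as the homozygous ones. At RPS12/SLC18B1, a ribosomal protein gene beside a vesicular transporter gene, coverage was 2237, 3147 and 2730 bp in the wild type, 2739, 2616 and 1545 bp in the heterozygous and 1877, 654 and 841 bp in the homozygous libraries. Its heterozygous replicate 3 fell inside the homozygous range, and whole lists left homozygous replicate 2 at 1154 bp.

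Segments of 100 bp or more that the strongest peaks of all wild type and no homozygous libraries covered were found in 32 regions near a start site, 1 in each. They summed to 10829 bp. In 31 of the 32, no base on at least 1 side was covered by all 9 libraries. That also held for 309 of the 326 segments of 100 bp or more that all 9 libraries covered, so it does not place them. Their median GC content was 51.28% and their median CpG ratio 0.572, against 64.72% and 0.827 in the segments that all 9 libraries covered. A start site lay in 6 of the 32 and in 247 of the 326, so these sets are not compared at like places. The 4 segments near a start site covered by all wild type and no heterozygous libraries had medians of 47.14% and 0.548. Segments covered by all homozygous and no wild type libraries numbered 13 in 12 regions. Of these 13, 3 held a start site, and their median GC content was 64.11%. In the median region near a start site 1180 bp were covered by all 9 libraries, and a start site lay within those shared bases in 202 of 243 regions (83.13%).

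Between heterozygous and wild type libraries the limma fit called 25 of 19254 regions (0.13%) and 1 of the 254 broad ones, NCOA2, higher in heterozygous cells (background 0.0467% for higher and 0.0831% for lower), and the median log2 difference over the broad regions was 0.00. Groups were 250 bp apart in 5 of 287 broad regions (1.74%, background 1.18%), 4 higher in the wild type (background 0.726%) and 1 in the heterozygous libraries (background 0.453%). Of these 5, 2 were apart in the same direction with the 20000 strongest peaks, 2 with 100000 and 0 with whole lists. Both comparisons with the wild type use the same wild type libraries. Without wild type replicate 3 and heterozygous replicate 1, with 2 libraries left in each group, 79 broad regions (27.5%) were 250 bp apart, against 21.5% of all regions. The other 2 comparisons had 54 and 45 broad regions apart at the same setting, against 15.2% and 12.3% of all regions. They keep 3 homozygous libraries, and 2 against 2 libraries are more easily apart, so the counts cannot be ranked. The 2 wild type libraries left also shared 6.15% of their intervals. A limma fit with wild type replicates 1 and 2 averaged and wild type replicate 3 and heterozygous replicate 1 dropped leaves 1 wild type value. That value has no spread of its own, so the calls of this fit are not given.

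NCOA2, a coactivator of nuclear receptors, lies on chromosome 8. Its coverage was 1127, 1114 and 1081 bp in the wild type, 2120, 1762 and 2156 bp in the heterozygous and 1478, 1619 and 1645 bp in the homozygous libraries. The wild type libraries were the lowest 3, the homozygous ones next and the heterozygous ones highest, with no overlap between genotypes. The log2 difference between heterozygous and wild type was 0.86 ± 0.08 (SE, limma adjusted p = 0.0239), and that between homozygous and wild type 0.51 ± 0.08 (SE, limma adjusted p = 0.0546). Weaker peaks covered the same flank in wild type cells: with whole lists they had 1806, 1987 and 2035 bp against 2120, 1762 and 2156 bp in the heterozygous libraries, and the groups overlapped (limma adjusted p = 1.0). The call was also lost without wild type replicate 1, wild type replicate 2, heterozygous replicate 3 or homozygous replicate 2 (limma adjusted p 0.0618 to 0.156).

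The 3 regions with the largest lower coverage in heterozygous cells were CHMP1B, a region in TPTEP1 and RNF145. CHMP1B, a membrane-remodelling ESCRT-III subunit, had 1379, 1610 and 1941 bp in the wild type, 500, 500 and 986 bp in the heterozygous and 949, 1096 and 632 bp in the homozygous libraries, so both mutant groups lay below the wild type. TPTEP1, a pseudogene transcript, had 2531, 2553 and 2575 bp in the wild type, 1640, 1910 and 1604 bp in the heterozygous and 1669, 2707 and 2586 bp in the homozygous libraries, where homozygous replicate 1 lay with the heterozygous ones. RNF145, an E3 ubiquitin ligase gene, had 2423, 2415 and 2460 bp in the wild type, 1994, 1049 and 1839 bp in the heterozygous and 2043, 1460 and 1926 bp in the homozygous libraries. None of the 3 passed the limma test (adjusted p 0.785 at CHMP1B and 0.858 at both others). With the 20000 strongest peaks the difference at CHMP1B was 202.3 bp in the other direction.

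By summits the heterozygous and wild type groups were apart in 15 broad regions (5.23%, background 1.86%), and among regions of 2000 to 2499 bp the share was 4.34%. Of the 15, 10 were higher in the wild type (background 1.23%) and 5 in the heterozygous libraries (background 0.632%). The largest excess in heterozygous libraries was at NIPBL and GPC6, a glypican, and the largest deficit at SOCS2 and CFAP97/SNX25. SOCS2 had 11, 12 and 13 summits in the wild type, 9, 6 and 10 in the heterozygous and 7, 8 and 9 in the homozygous libraries, so that both mutant groups had fewer. GPC6 had 9, 9 and 10 summits in the wild type, 12, 12 and 12 in the heterozygous and 9, 9 and 10 in the homozygous libraries, with only the heterozygous ones higher. NIPBL had 5, 5 and 5 in the wild type, 7, 9 and 8 in the heterozygous and 5, 6 and 8 in the homozygous libraries.

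Homozygous and heterozygous libraries were compared directly, and this comparison shares the homozygous libraries with the first. The limma fit called 192 of 19254 regions (0.997%) and 2 broad ones, again KCNAB2/NPHP4 (log2 difference -0.73 ± 0.09 SE, adjusted p = 0.019) and MAPK9 (-0.98 ± 0.14 SE, adjusted p = 0.0352), both lower in homozygous cells (background 0.628% for lower and 0.369% for higher). The median over broad regions, which were chosen by the width of the same peaks, was -0.13, against -0.01 over all. The KCNAB2/NPHP4 call was lost without heterozygous replicate 2 (limma adjusted p 0.0574) or heterozygous replicate 3 (0.0531). Its limma adjusted p was 0.0943 with centring, 0.128 with a replicate block and 0.138 with whole lists. The exact permutation test is the one given above for all genotypes together and cannot decide this pair. The MAPK9 call held only without homozygous replicate 2 or homozygous replicate 3. Groups were 250 bp apart in 25 broad regions (8.71%, background 7.6%), 18 higher in the heterozygous (background 4.03%) and 7 in the homozygous libraries (background 3.57%). Of these 25, 1 was apart in the same direction with the 20000 strongest peaks and 3 in the other, and with whole lists 6 were apart in the same direction. By summits 44 broad regions were apart (background 9.3%), 32 of them higher in the heterozygous (background 5.11%) and 12 in the homozygous libraries (background 4.19%).

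The largest differences in this comparison were at PHF21A, KDM6B and RGL2, higher in homozygous cells, and at PGR, COLGALT2 and a region near LRFN5, lower there. PHF21A, a subunit of the LSD1 corepressor complex, had 933, 0 and 0 bp in the heterozygous, 1310, 2688 and 2558 bp in the homozygous and 1268, 1154 and 0 bp in the wild type libraries. KDM6B, a demethylase of histone H3, had 0, 500 and 0 bp in the heterozygous, 1953, 1242 and 1665 bp in the homozygous and 740, 745 and 500 bp in the wild type libraries. Homozygous libraries were thus highest at both, although weaker peaks gave KDM6B 1000 to 2147 bp in the other 6. Libraries at 0 bp held weaker peaks at PHF21A too. Neither region was apart in this direction with the 20000 or 100000 strongest peaks or with whole lists. PGR had 3372, 3311 and 2313 bp in the heterozygous, 703, 0 and 945 bp in the homozygous and 1063, 2930 and 3208 bp in the wild type libraries, where wild type replicate 1 was nearly as low as the homozygous ones. COLGALT2, a collagen glycosyltransferase, had 2354, 2404 and 2226 bp in the heterozygous, 500, 679 and 1096 bp in the homozygous and 0, 609 and 2214 bp in the wild type libraries. Wild type libraries therefore lay on both sides at PGR and COLGALT2, and with the 20000 strongest peaks the difference at COLGALT2 was 166.7 bp in the other direction. The distal region near LRFN5 had 1829, 1668 and 2010 bp in the heterozygous, 0, 1133 and 0 bp in the homozygous and 1365, 1358 and 1840 bp in the wild type libraries, and stayed apart with whole lists. By summits, CTCFL, the germline paralogue of CTCF, had 6, 6 and 0 in the heterozygous, 11, 7 and 11 in the homozygous and 0, 0 and 10 in the wild type libraries, where wild type replicate 3 was as high as the homozygous ones.

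In 5 broad regions the homozygous libraries exceeded both other genotypes by 250 bp or more (1.74%, background 2.02%), among them PROX1, RGL2, KDM6B and USF2, and in 5 they lay below both (1.74%, background 1.81%), namely KCNAB2/NPHP4, MAPK9, ZBTB1/ZBTB25, ATPSCKMT/CCT5 and the distal region in PES1P1. The region in PES1P1, a pseudogene, had 2441, 2413 and 2451 bp in the wild type, 2460, 2433 and 2435 bp in the heterozygous and 1773, 1590 and 0 bp in the homozygous libraries. The other 6 libraries lay between 2413 and 2460 bp there, and whole lists gave homozygous replicates 1 and 3 2407 and 2398 bp but replicate 2 1590 bp.

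**Figure D5:**
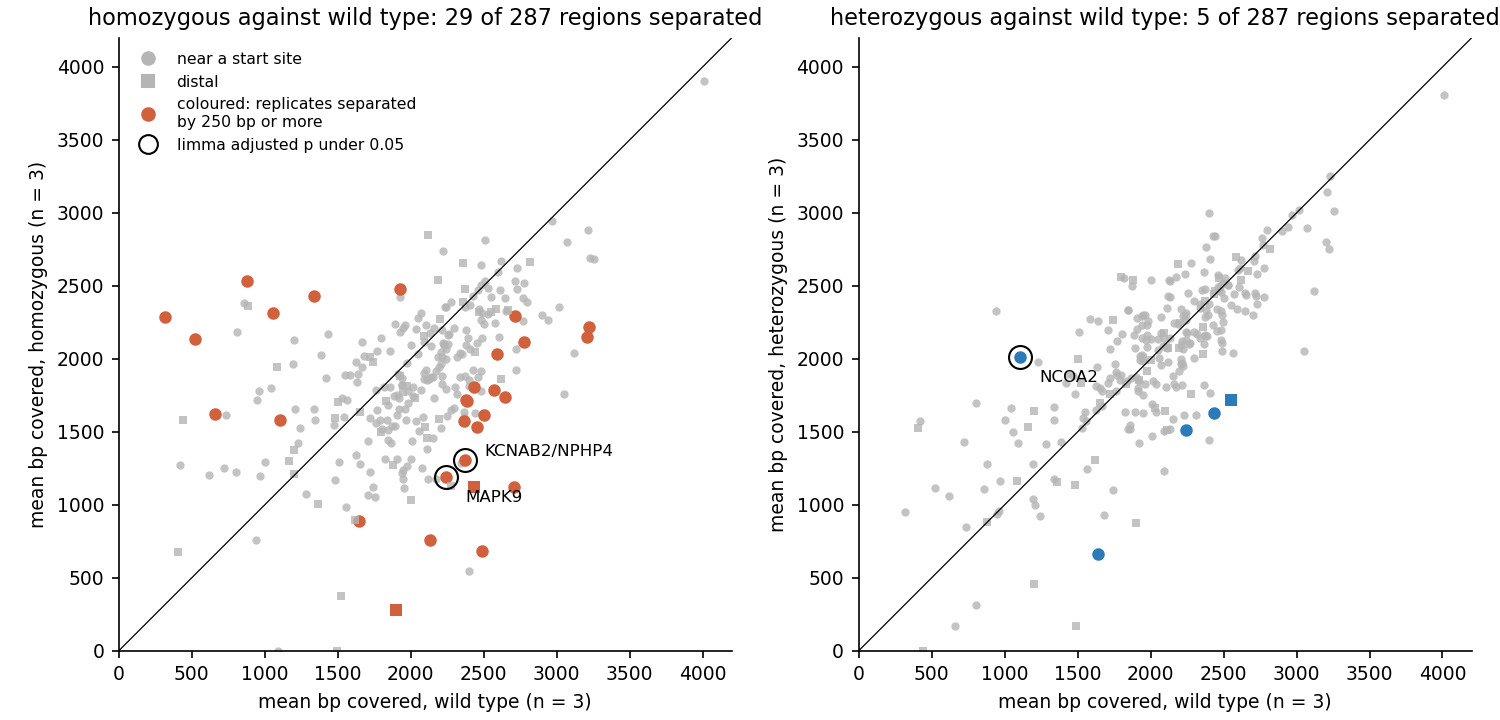
Mean bp covered in each of the 287 broad regions, homozygous against wild type (left) and heterozygous against wild type (right), with the line of equality. Coloured symbols mark the 29 and 5 regions whose replicates were 250 bp or more apart, and rings mark the regions with a limma adjusted p under 0.05: KCNAB2/NPHP4 and MAPK9 on the left and NCOA2 on the right.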

How the data were processed

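ATAC-seq was done on 3 wild type, 3 heterozygous and 3 homozygous K562 libraries, grouped by the sample labels. The authors deposited 1 peak list per library; per the submitters' processing notes the tools were MACS2 2.1.0, Bowtie2 2.2.9, cutadapt and Picard with builds hg19 and GRCh37, and their settings are not given in the sources used here. The deposited −log10 p of each peak, an average where windows were joined, ranked the peaks. The deposited fold enrichment (a ratio) and −log10 q were not used. The deposited offsets counted summits. Windows are 500 bp around a summit, so bp covered rises in steps that the window sets, and only the first and last summit of a joined interval could be placed for motifs.

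Start sites were those of GENCODE 44 lifted to GRCh37, and sequences came from the GRCh37 reference. Tables were made with python 3.11.15, pandas 2.3.3, numpy 2.4.6 and matplotlib 3.10.9, and limma 3.58.1 in R 4.3.3 (trend and robust) was fitted to log2 bp covered with Benjamini-Hochberg adjustment over all regions tested. In data simulated for the homozygous against wild type comparison over 19254 regions, limma recovered 11 of 100 regions changed by 0.5 and 37 of 100 changed by 1 on the log2 scale. Regions named were the 8 widest of each class, the 3 (bp) or 2 (summits) largest separated differences per direction, the 3 widest per gene list, those beside the length limit and those limma called; others are said to be chosen after their values were seen. The members and lists were chosen with earlier results of these data known. Alternatives covered the number of peaks, margin, length limit, centring, filter, test, replicate block, libraries that share intervals and each library left out. Some results are not reported here.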

Additional observations from a re-analysis of the deposited data

How the results depend on the processing

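The number of broad regions was 1760 at a limit of 2000 bp, 32 at 3000 bp, 116 with the 20000 and 520 with the 100000 strongest peaks, 139, 135 and 96 with the wild type, heterozygous or homozygous libraries merged alone, and 260 to 282 with 1 library left out. In the order homozygous against wild type, heterozygous against wild type and homozygous against heterozygous, limma called 2, 1 and 2 broad regions (178, 25 and 192 of all). It called 0 in the second and 1 in the last with centring (0 and 20 of all), 12 in the first and 6 in the last over regions held by 3 or more libraries (4485 and 4626 of all), 0 in the second with 20000, 100000 or all peaks (2, 27 and 24 of all), 4 in the first and last with all peaks (208 and 222 of all), and 1 to 10, 0 to 4 and 1 to 8 with 1 library left out. The exact permutation test, 1 test of all 3 genotypes, called 0 broad regions and 0 of all (smallest adjusted p 0.477). It could call none here, since 122 regions shared its smallest possible p of 0.00357. At an unadjusted p under 0.05 it had 36 broad regions and 1594 of all. With the replicate block limma called 0, 0 and 0 (102, 8 and 96 of all). The replicate numbers showed no clear pairing of the samples, but the check cannot exclude one. In deviations from genotype means, same-numbered libraries correlated between -0.241 and 0.122, over 0.1 in 1 of 9 pairs. In 9 of 18 tests a library was closest to its own number. Wild type replicate 3 and heterozygous replicate 1, which share intervals, correlated at 0.368, and this affects the other pairs of these genotypes.

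Groups were apart in bp in 77, 24 and 78 regions at a margin of 1 bp (10914, 3036 and 10711 of all), 14, 2 and 14 at 500 bp (6077, 763 and 6626 of all), 54, 79 and 45 without wild type replicate 3 and heterozygous replicate 1 (added after seeing the data; 13524, 15934 and 11361 of all), 3 in the second with all peaks (1026 of all), and 35 to 66, 6 to 51 and 40 to 60 with 1 library left out. In summits they were apart in 19, 5 and 17 at a margin of 2 (1324, 129 and 1398 of all), 85, 122 and 75 without those 2 libraries (16862, 20335 and 13880 of all), 8 in the second with 20000 peaks (726 of all), and 56 to 98, 16 to 75 and 57 to 91 with 1 library left out. Fewer libraries make such calls easier. At a limit of 3000 bp the difference in bp was -553.6 and 108.33 for homozygous minus wild type (near a start site and distal), -115.32 and 113.56 for heterozygous minus wild type, and -2.517 summits for homozygous minus wild type near a start site. With 1 library left out these ran from -255.01 to -126.83, -218.12 to -107.65, -60.7 to 58.72 and -123.93 to 19.63 bp, and for summits from -1.194 to -0.554 and -1.027 to -0.488. Single regions turned direction at RGL2 (-41.3 bp, homozygous minus wild type, with 100000 or all peaks) and with 20000 peaks at ZBTB1/ZBTB25 (239.7 bp), RPS12/SLC18B1 (193.3 bp), CHMP1B (202.3 bp, heterozygous minus wild type) and COLGALT2 (166.7 bp, homozygous minus heterozygous); the cause was not tested.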
